A study of Homo sapiens with 44 samples.

Results

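The genes described here are 8 genes of myosin light chains and of a kinase that acts on them: MYL1, MYL2, MYL3, MYL4, MYL6, MYL7, MYL9 and MYLK3. They were chosen by name, with no measured value in the rule, from 60499 genes in the deposited tables, and all 8 symbols were found. H1 is an established line of human embryonic stem cells, and each gene was followed in 44 culture wells of it, from the pluripotent state to day 90 of differentiation towards heart muscle. Of the 8 genes, 7 had enough counts to be tested. MYL1 did not.

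Myosin, the motor of muscle, is built from heavy chains that hydrolyse ATP and pull on actin, and each heavy chain neck carries an essential and a regulatory light chain. The essential chain stiffens the neck, and the regulatory chain can be phosphorylated by a light chain kinase and dephosphorylated by a phosphatase, which tunes contraction. In the heart, MYL7 (regulatory) and MYL4 (essential) are known as the atrial chains and are also expressed in the early heart tube, whereas MYL2 (regulatory) and MYL3 (essential) are known as the ventricular chains. MYL6 (essential) and MYL9 (regulatory) serve non-muscle and smooth muscle myosin, MYL1 (essential) serves fast skeletal muscle, and MYLK3 is the cardiac kinase of the regulatory chain.

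The pluripotent group was maintained on the laminin LN-521 alone. All other wells had LN-521 with LN-221. Day 0 wells were in Nutristem medium, day 1 and day 3 wells had received CHIR99021, an inhibitor of the kinase GSK3, and day 5 wells had received IWP2, an inhibitor of Wnt production. These wells and those of days 7 and 9 were in a medium with B27 lacking insulin, and wells of days 11, 14, 20, 30 and 90 were in a medium with CTS B-27. By the labels, days 5, 7, 9 and 11 have 5 wells each, and each other group has 3. At day 11 the series' design text counts 3 wells, but the 5 labelled ones were used. All wells come from 1 cell line and nothing says whether they are separate differentiations, so p-values measure the spread between these wells. RNA was taken from whole wells, so more cells of a type and more RNA per cell cannot be told apart in any value below.

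Total counts per well ran from 6937136 to 33498022, and 3 counts correspond to 0.0896 to 0.432 CPM. Levels are CPM, the counts of a gene as a rate of the total counts, after TMM scaling, which removes differences in library composition, and comparisons between genes use TPM, which is per transcript length. No 2 replicate wells of the 64 pairs compared were identical. The wells of later days were uneven. Day 20 replicate 2, day 14 replicate 2 and day 30 replicate 10 had the highest mitochondrial shares of counts, 4.57%, 3.23% and 4.56%. Day 11 replicates 1 and 2 had 2540 and 4520 TPM summed over 6 endoderm and liver markers, against 72.7 to 98.9 in the other 3 wells of that day. The summed level of 8 cardiomyocyte markers (TNNT2, ACTN2, TNNI1, TNNI3, RYR2, MYBPC3, MYH6 and MYH7) rose from 33.4 to 38.9 TPM at day 0 to 705 to 2400 at day 9 and 1782 to 5190 at day 90. Other lists were smooth muscle (ACTA2, TAGLN, CNN1, MYH11, SMTN and LMOD1), fibroblast (COL1A1, COL3A1, DCN, LUM, POSTN and PDGFRA), endothelial (PECAM1, CDH5, KDR, TEK and VWF), endoderm and liver (AFP, APOA1, TTR, ALB, FOXA2 and SERPINA1) and pluripotent cells (POU5F1, NANOG, SOX2, LIN28A and DNMT3B). The sum of 9 skeletal muscle markers did not exceed 6.54 TPM in any well.

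By the first sampled day on which every well exceeded all 9 wells of the pluripotent, day 0 and day 1 groups, the genes differed in when their levels left the early range. That day was day 3 for MYLK3, MYL4 and MYL3, day 5 for MYL7, day 7 for MYL9, day 11 for MYL6 and MYL2, and day 20 for MYL1. The share of all genes that had left the early range by each day was not counted. For MYL6 the lowest day 11 well, at 639 CPM, was barely above the highest early well of 637.5 CPM, and wells of day 14 (from 526.3 CPM) and day 20 (from 443 CPM) lay within the early range again. For MYL1 the day 20 wells held 2, 2 and 5 counts, and a day 90 well was back at 0. At day 3 MYLK3 stood at 22.1% of its own highest group mean, MYL4 at 1.28%, MYL3 at 0.279% and MYL7 at 0.240%. At day 9 MYL7 had reached 41.5%, MYL4 37.4%, MYL3 16.5% and MYL2 0.183%. TNNT2, the cardiac troponin T gene, was at 0.160% on day 3, 2.67% on day 5 and 31.9% on day 9.

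**Figure D1:**
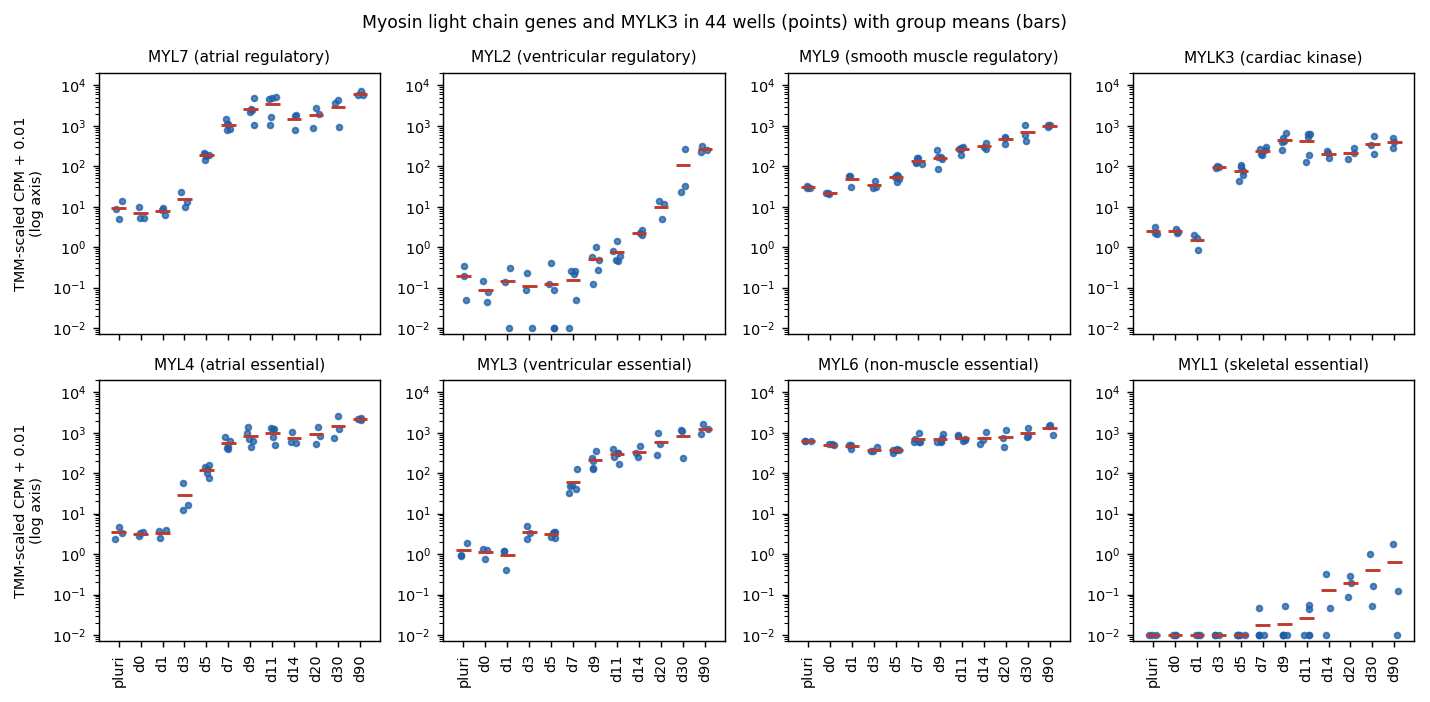
TMM-scaled CPM (log axis, 0.01 added so that wells at 0 can be drawn) of the 8 genes in each of the 44 wells, by group, with bars for group means. MYL7 and MYL4 climb between days 3 and 9, MYL3 most steeply after day 5 and MYL2 after day 9, while MYL6 moves within 324 to 1587 CPM.

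**Figure D2:**
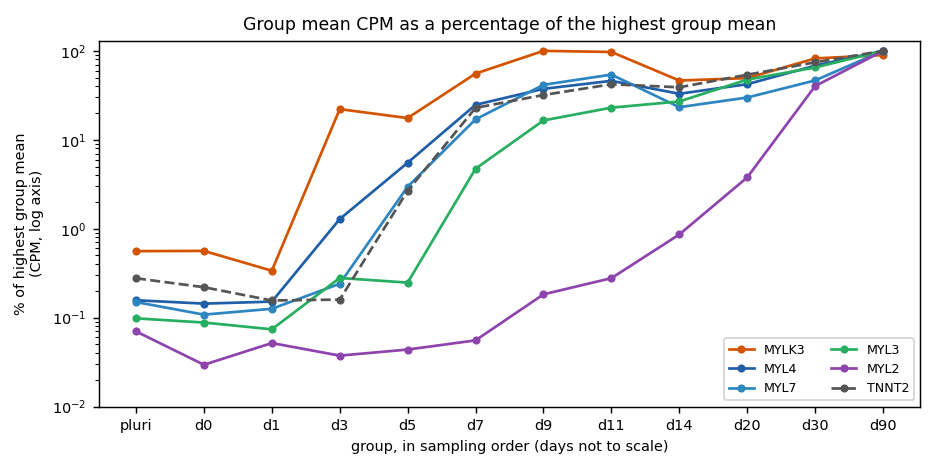
Group mean CPM of 5 of the genes and of TNNT2, each as a percentage of its highest group mean (log axis), in sampling order with days not to scale. MYLK3 is at 22.1% by day 3, when MYL4 is at 1.28% and MYL2 at 0.0374%.

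At day 3 the kinase gene was nearer to its own highest group mean than MYL2, MYL3, MYL4 or MYL7 were to theirs. Per transcript length, MYLK3 was below MYL7 in each day 3 well, at 14.08, 14.82 and 14.98 TPM against 36.74, 20.56 and 17.71. In the same wells MYL4 was at 55.54, 16.94 and 13.83 TPM, and MYL3 and MYL2 were below MYLK3. MYLK3 (ENSG00000140795, chromosome 16, 46703369 to 46790407, minus strand, GRCh38) was at 0.842, 1.64 and 1.96 CPM in the 3 wells of day 1 and at 97.1, 102 and 92.9 CPM in those of day 3. The day 3 wells lay within a narrow band, far above every earlier well. Its log2 fold change for day 3 against day 1 was 6.03 (SE 0.53, adjusted p 2.5e-11, edgeR quasi-likelihood test, Benjamini-Hochberg adjustment over all 22955 genes tested). Genes are called below when the adjusted p is under 0.05 and the log2 fold change, up or down, is 1 or more in size. Per transcript length, MYLK3 held 3.94 ± 1.18 TPM for each TPM of TNNT2 at day 3 (SD, n = 3) and 0.0822 ± 0.0151 at day 9 (SD, n = 5). The day 3 ratio was 9.21 ± 10.1 for MYL4 and 7.40 ± 5.57 for MYL7 (SD, n = 3 each). For MYL9, MYL3 and MYL2 it was 5.45 ± 2.76, 0.935 ± 0.249 and 0.0246 ± 0.0279 (SD, n = 3 each). TNNT2 was at 0.160% of its highest group mean on that day.

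The atrial essential chain and, at a low level, the ventricular one rose in the same interval. MYL4 was at 2.43, 3.92 and 3.61 CPM at day 1 and at 55.9, 16.6 and 12.0 CPM at day 3. Every day 3 well was above every day 1 well, and replicate 1 was well above the others. Its log2 fold change was 3.08 (SE 0.50, adjusted p 8.3e-06). MYL3 was at 0.404, 1.19 and 1.21 CPM at day 1 and at 2.34, 5.03 and 3.25 CPM at day 3, again without overlap, with a log2 fold change of 1.91 (SE 0.57, adjusted p 0.01). The MYL3 call was lost without day 1 replicate 1 (1.56) or day 3 replicate 2 (1.57). In all 3 of 7 tested genes were higher and 0 lower, where 17.8% of all genes tested were called (11% higher and 6.8% lower). MYL7, at 6.23 to 9.06 CPM on day 1 and 9.92 to 22.7 on day 3, had a log2 fold change of 0.93 (adjusted p 0.189). This comparison was added after the levels had been seen, so its values are a description of a step already visible. Among cardiomyocyte markers 1 of 8 was higher and 1 lower, and their sum was 15.9 to 20.8 TPM at day 1 and 27.1 to 35.1 TPM at day 3. Markers of other cells moved in the same interval. Of 5 endothelial markers 3 were higher (VWF by 6.27, PECAM1 by 3.02 and CDH5 by 1.98 on the log2 scale), with sums of 27.3 to 31.9 TPM at day 1 and 45.4 to 52.6 TPM at day 3. Among 6 fibroblast markers PDGFRA, also a gene of early mesoderm, was higher (7.199), and the sums were 9.95 to 16.8 and 98.5 to 114 TPM. Of 6 smooth muscle markers CNN1 and LMOD1 were higher and TAGLN lower, with sums of 66.5 to 185 and 50.3 to 67.3 TPM. FOXA2 was the 1 endoderm and liver marker called, higher, and 4 of 5 pluripotent markers were lower. The part of these lists in the rises of MYLK3, MYL4 and MYL3 was not tested.

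The annotated starts of MYLK3 are shown with the bases before them because this gene had risen while the chains its product acts on were near their early levels. RefSeq (GRCh38.p14) lists 2 starts, and the 250 bases before each are printed 5′ to 3′ on the gene's strand. The first, chr16:46763247-46763496, has the E-box CAGCTG in capitals, with its first base 194 bases before the start. The second, chr16:46748345-46748594, has GATAA in capitals, 48 bases before the start.
MYLK3 upstream start: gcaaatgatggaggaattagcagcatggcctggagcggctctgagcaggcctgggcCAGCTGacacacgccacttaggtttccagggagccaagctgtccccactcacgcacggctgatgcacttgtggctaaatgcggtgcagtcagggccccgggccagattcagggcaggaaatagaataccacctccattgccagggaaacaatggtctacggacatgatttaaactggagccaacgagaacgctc
MYLK3 downstream start: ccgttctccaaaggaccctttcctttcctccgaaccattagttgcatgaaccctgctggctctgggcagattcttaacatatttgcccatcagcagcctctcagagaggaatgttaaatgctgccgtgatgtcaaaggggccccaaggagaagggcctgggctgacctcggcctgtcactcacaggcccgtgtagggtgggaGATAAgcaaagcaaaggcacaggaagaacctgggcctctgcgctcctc
On either strand CAGCTG occurred in 14% and GATAA in 20.4% of 35116 promoter windows of this length, so single matches are common.

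By day 5, after IWP2 had followed CHIR99021, both atrial chains were above their day 0 levels. MYL7 (ENSG00000106631, chromosome 7, 44138864 to 44141332, minus strand) was at 5.34, 9.78 and 5.32 CPM in the day 0 wells. At day 5 its 5 wells were at 147, 185, 189, 203 and 211 CPM. No day 5 well came near the day 0 range, and the log2 fold change was 4.78 (SE 0.58, adjusted p 1.8e-08). MYL4 (ENSG00000198336, chromosome 17, 47200446 to 47223679, plus strand) was at 2.72, 3.46 and 3.28 CPM on day 0 and at 74.97, 101, 124, 145 and 161 CPM on day 5. Its log2 fold change was 5.26 (SE 0.53, adjusted p 3e-10). MYLK3 stayed high, at 43.1 to 111 CPM against 2.18 to 2.83 on day 0 (log2 fold change 4.96, SE 0.48, adjusted p 1.2e-10).

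The other chains moved less in this interval. MYL3 was at 2.51 to 3.56 CPM on day 5 and 0.738 to 1.36 on day 0, a log2 fold change of 1.49 (SE 0.53, adjusted p 0.0222) that was no longer called without day 0 replicate 1 (1.26) or replicate 3 (1.57). MYL9 was at 40.2 to 62.0 CPM against 20.9 to 22.1 (log2 fold change 1.30, SE 0.26, adjusted p 9.9e-05). Day 0 had the lowest group mean of MYL9. Its day 1 wells, at 56.9, 30.4 and 58.1 CPM, were already above day 0 and overlapped those of day 5. MYL6 was at 324 to 405 CPM against 492.7 to 516 (log2 fold change -0.45, adjusted p 0.113), and MYL2 was at 0 to 0.391 CPM against 0.0336 to 0.133. In all 5 of 7 genes were higher and 0 lower, where 24.7% of all genes tested were called (12.5% higher and 12.2% lower). The median log2 fold change was 1.49 over the 7 genes and 0.04 over all genes tested. Markers of several cell types changed alongside. Of 8 cardiomyocyte markers 4 were higher, of 6 endoderm and liver markers 3 and of 6 fibroblast markers 4. Their summed levels went from 33.4 to 38.9, 3.29 to 7.71 and 20.5 to 24.4 TPM at day 0 to 84.4 to 209, 155 to 453 and 284 to 484 TPM at day 5. Of 5 endothelial markers PECAM1, CDH5, KDR and VWF were higher, with sums of 20.7 to 25.9 TPM at day 0 and 45.1 to 76.9 TPM at day 5. Of 6 smooth muscle markers ACTA2 (log2 fold change 2.20), LMOD1 (1.75) and SMTN (1.06) were higher beside MYL9, with sums of 50.8 to 52.6 and 55.8 to 135 TPM. Of 5 pluripotent markers 4 were lower. The part of these lists in the changes was not tested.

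The bases before the MYL7 start are shown because MYL7 reached the highest level of the 8 genes. In this window, chr7:44141333-44141582 (GRCh38.p14, RefSeq, minus strand), a CArG box and GATAA are in capitals, with their first bases 61 and 41 bases before the start.
MYL7: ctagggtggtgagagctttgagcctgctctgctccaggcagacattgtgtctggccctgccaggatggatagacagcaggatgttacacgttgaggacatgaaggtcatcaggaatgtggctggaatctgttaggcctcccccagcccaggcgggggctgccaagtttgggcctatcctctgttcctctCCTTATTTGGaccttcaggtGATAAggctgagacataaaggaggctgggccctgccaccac
A CArG box occurred in 1.16% of the 35116 windows and GATAA in 20.4%. A match describes letters in the window and does not show that a factor is bound there.

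Between day 5 and day 7 the ventricular essential chain showed the largest log2 fold change of the 7 tested genes, and the atrial pair rose again. MYL3 (ENSG00000160808, chromosome 3, 46857872 to 46882169, minus strand) was at 2.51, 2.71, 3.35, 3.55 and 3.56 CPM on day 5 and at 33.01, 39.6, 47.0, 50.0 and 130 CPM on day 7. The highest day 7 well, replicate 10, stood apart from the other 4, but all 5 were far above day 5. The log2 fold change was 4.25 (SE 0.44, adjusted p 4.1e-09). MYL7 reached 797 to 1495 CPM (log2 fold change 2.52, SE 0.41, adjusted p 5.1e-05) and MYL4 399 to 778 CPM (2.16, SE 0.36, adjusted p 6.5e-05). MYLK3 reached 193 to 306 CPM (1.66, SE 0.33, adjusted p 0.00064) and MYL9 112 to 161 CPM (1.36, SE 0.22, adjusted p 2.6e-05).

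None of these 5 genes had overlapping wells between the days, a description, since the share of all genes without overlap was not counted. In all 5 of 7 were higher and 0 lower, where 3.65% of all genes tested were called (2.74% higher and 0.906% lower). The median log2 fold change was 1.66 over the 7 genes and -0.01 over all genes tested. MYL6 went from 324 to 405 CPM to 588 to 978 CPM, with a log2 fold change of 0.90 (SE 0.20, adjusted p 0.00251) that stayed under the fold threshold. MYL2 was at 0 to 0.251 CPM on day 7 and was not called (adjusted p 0.925). Of 8 cardiomyocyte markers 6 were higher, with sums of 843 to 1848 TPM at day 7. Of 6 smooth muscle markers 5 were higher, with sums of 55.8 to 135 TPM at day 5 and 248 to 474 TPM at day 7. Of 5 endothelial markers 2 were higher, of 6 endoderm and liver markers 1 was higher and of 6 fibroblast markers 1 was lower. MYL9 is also a smooth muscle gene, and the part of these lists in the changes was not tested.

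The MYL3 window is shown because MYL3 had the largest log2 fold change at day 7. RefSeq lists 2 starts for it, and the window printed is the 1 with a motif match. In chr3:46861685-46861934 (GRCh38.p14, RefSeq, minus strand) GATAA is in capitals, 84 bases before the start. This RefSeq start lies 1758 bases from the nearest GENCODE start of the gene, and no annotated exon falls in the window. The other start lies 13 bases from a GENCODE start. Its window, chr3:46882183-46882432, is covered by exon bases of PTH1R and holds no match to the motifs searched.
MYL3: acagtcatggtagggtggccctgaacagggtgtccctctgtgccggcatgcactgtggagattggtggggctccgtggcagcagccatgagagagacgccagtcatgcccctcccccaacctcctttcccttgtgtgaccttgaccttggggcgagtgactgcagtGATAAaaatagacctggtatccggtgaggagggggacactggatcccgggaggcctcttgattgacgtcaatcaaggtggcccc
Of the 8 windows of 5 members in the promoter table, 4 held GATAA, 1 each of MYL7, MYL3, MYLK3 and MYL1, although MYL1 was near 0 throughout. The other 4, a second window each of MYL3, MYLK3 and MYL1 and that of MYL6, did not. These matches are a description, since 20.4% of all windows hold one. MYL2, MYL4 and MYL9 had no entry in the promoter table.

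**Figure D3:**
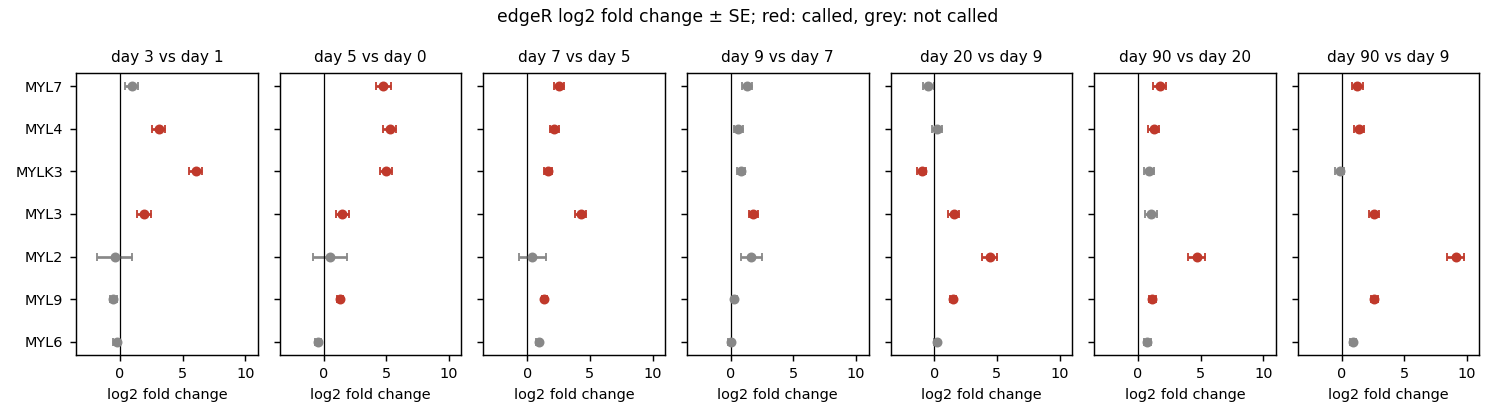
edgeR log2 fold changes with their standard errors for the 7 tested genes in the 7 comparisons, red where called and grey where not. MYLK3 is the farthest to the right for day 3 against day 1, MYL3 for day 7 against day 5, and MYL2 for each of the 3 comparisons that involve day 20 or day 90.

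From day 7 to day 9 MYL3 kept rising, and it was the 1 gene of 7 that was called. Its day 9 wells were at 126, 135, 199, 233 and 352 CPM, all but the lowest above the highest day 7 well of 130. The log2 fold change was 1.80 (SE 0.38, adjusted p 0.00532). Across all genes 1.28% were called (1.02% higher and 0.261% lower). MYL7 was at 1062, 2176, 2477, 2609 and 4758 CPM on day 9, with a log2 fold change of 1.29 (SE 0.40, adjusted p 0.0886). It was called with DESeq2 (1.31), with no filter on low counts (1.31), in a fit of the day 7 and day 9 wells alone (1.31), and without day 9 replicate 2 (1.49). That replicate was the lowest well for MYL7 and the highest of the day for summed endoderm and liver markers, at 1913 TPM against 188 to 863 in the others. The part of those markers' source in its MYL7 level was not tested. MYL4 (457 to 1354 CPM, log2 fold change 0.60, adjusted p 0.553) and MYLK3 (246 to 652 CPM, 0.85, adjusted p 0.203) were not called. MYLK3 had its highest group mean on this day, 440 ± 149 CPM (SD, n = 5). Of the 8 cardiomyocyte markers 2 were higher, of 6 endoderm and liver markers 1 was higher and of 5 pluripotent markers 2 were lower.

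At day 11 the wells fell into unlike sets for the atrial chain and the kinase. MYL7 was at 1612 and 1035 CPM in replicates 1 and 2 and at 5043, 4846 and 4517 CPM in replicates 5, 6 and 7. MYLK3 was at 189 and 131 CPM in the former and at 643, 646 and 527 CPM in the latter. Replicates 1 and 2 were the wells with 2540 and 4520 TPM of endoderm and liver markers and had RNA integrity numbers of 8.6 and 8.0, against 9.2 to 9.5. Whether those measures account for the low levels was not tested, and day 11 enters none of the tests. At day 14 all 3 wells were at 797 to 1829 CPM for MYL7, and their endoderm and liver sums were 1564 to 2461 TPM.

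Of the 4 cardiac chains, the ventricular regulatory chain was the last to leave the early range, at day 11. Its lowest day 11 well, at 0.445 CPM (10 counts), was only just above the highest early well, at 0.337 CPM (11 counts). MYL2 (ENSG00000111245, chromosome 12, 110910819 to 110920722, minus strand) was at 0.114, 0.269, 0.472, 0.553 and 1.03 CPM at day 9, which is 3 to 24 counts per well. It was at 2.05, 2.21 and 2.62 CPM at day 14, at 4.92, 11.7 and 13.5 CPM at day 20, at 22.6, 33.1 and 265 CPM at day 30 and at 222, 259 and 319 CPM at day 90. From day 14 to day 30 each sampled day lay wholly above the one before, while day 11 overlapped day 9. Day 30 and day 90 overlapped through 1 well, day 30 replicate 1. Its log2 fold change for day 20 against day 9 was 4.42 (SE 0.61, adjusted p 2.2e-06).

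Day 20 against day 9 separated the chains into groups that rose and groups that did not. Besides MYL2, MYL3 was higher at 284, 532 and 989 CPM (log2 fold change 1.53, SE 0.42, adjusted p 0.00673), although its wells overlapped those of day 9 and the call was lost without day 20 replicate 3 (0.97). MYL9 (ENSG00000101335, chromosome 20, 36541484 to 36551447, plus strand) was higher at 359, 498 and 537 CPM against 86.4 to 253 (1.49, SE 0.24, adjusted p 2.1e-05), with no overlap. MYL7 (873, 1986 and 2793 CPM, log2 fold change -0.47, adjusted p 0.458) was not called. MYL4 (523, 843 and 1411 CPM) and MYL6 (443, 755 and 1137 CPM) each had a log2 fold change of 0.17 and were not called either. Both values turned negative without day 20 replicate 3.

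MYLK3 was lower at day 20, at 151, 213 and 288 CPM against 246 to 652 (log2 fold change -1.02, SE 0.38, adjusted p 0.044). This call did not hold with RLE scaling (-0.998), DESeq2 (-0.998), either TPM test (-0.54 and -0.55), the day 9 and day 20 wells alone (-1.02), the lane as a term (-0.87) or the replicate block (-0.79). It was also lost in 6 of the 8 fits that each left out a well. In all 3 of 7 genes were higher and 1 lower, where 14.5% of all genes tested were called (9.01% higher and 5.49% lower). The median log2 fold change was 0.17 over the 7 genes and 0.10 over all genes tested. Of 6 smooth muscle markers 2 were higher (149 to 691 TPM in sum at day 9 and 703 to 939 at day 20), and all 5 endothelial markers were lower. Of 8 cardiomyocyte markers MYH7 alone was called, higher. The part of these lists in the changes, that of MYL9 included, was not tested.

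Between day 20 and day 90 MYL2 again had the largest log2 fold change of the 7, 4.69 (SE 0.67, adjusted p 2.7e-06). MYL7 was at 5649, 5780 and 7484 CPM on day 90, above every well of every other group (log2 fold change 1.74, SE 0.52, adjusted p 0.0117). MYL4 was at 2079, 2163 and 2340 CPM (1.24, SE 0.45, adjusted p 0.0392) and MYL9 at 960, 1046 and 1053 CPM (1.13, SE 0.28, adjusted p 0.00231). MYL3 (942, 1219 and 1640 CPM, log2 fold change 1.07, adjusted p 0.097), MYLK3 (292, 402 and 491 CPM, 0.86, adjusted p 0.121) and MYL6 (893, 1470 and 1587 CPM, 0.76, adjusted p 0.0259) were not called. In all 4 of 7 were higher and 0 lower, where 15.4% of all genes tested were called (7.04% higher and 8.35% lower).

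Of these 4 calls MYL2 held in each alternative, and the others did not. Without day 20 replicate 2, the well with the fewest counts, the log2 fold changes of MYL4, MYL7 and MYL9 were 0.96, 1.40 and 0.98 and MYL2 was the 1 gene called. The MYL4 call did not hinge on that well. It was also lost without day 20 replicate 1 or day 90 replicate 2, 4 or 5 (adjusted p 0.0645 to 0.0894). On log2(TPM + 1) with limma the log2 fold changes of MYL4, MYL7 and MYL9 were 0.35, 0.88 and 0.20, none of them called. On that scale the median over all genes was -0.41 and 4.45% of calls were higher, against -0.16 and 45.7% on scaled counts. All 6 endoderm and liver markers were lower at day 90, with sums of 651 to 2020 TPM at day 20 and 2.27 to 54.7 at day 90. Of 8 cardiomyocyte markers 4 were higher and 1 lower, and of 6 smooth muscle markers 2 were lower. Of 5 endothelial markers 2 were lower, and of 6 fibroblast markers DCN was higher. The part of these lists in the rises was not tested. Day 20 wells were sequenced in lanes 1 to 3 and day 90 wells in lanes 4 and 5, and with the lane as a term 2 of 7 genes were called, MYL2 and MYL9.

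Over the whole later course, day 90 against day 9, all 4 cardiac chains were higher. The 2 ventricular chains had the larger log2 fold changes, 9.11 for MYL2 (SE 0.67, adjusted p 1.9e-13) and 2.60 for MYL3 (SE 0.42, adjusted p 4.9e-06). For the atrial pair they were 1.42 for MYL4 (SE 0.39, adjusted p 0.00372) and 1.27 for MYL7 (SE 0.44, adjusted p 0.0211). MYL9 was higher by 2.63 (SE 0.24, adjusted p 4.3e-11). MYL6 had a log2 fold change of 0.93 (SE 0.22, adjusted p 0.00099), under the fold threshold, and was called with RLE scaling (1.01), with DESeq2 (1.01) and with the replicate block (1.13). MYLK3 had -0.16 (adjusted p 0.776). In all 5 of 7 were higher and 0 lower, where 23.9% of all genes tested were called (11.9% higher and 12% lower). On TPM with limma 3 of 7 were called. MYL4 (0.97) and MYL7 (0.83) were not, on a scale where the median of all genes was -0.19. MYL7 was not called without day 9 replicate 2 (1.07) or day 90 replicate 4 (1.13) either. Of 8 cardiomyocyte markers 7 were higher and MYH6 lower. All 5 endothelial markers were lower, with sums of 21.6 to 83.4 TPM at day 9 and 2.21 to 11.0 TPM at day 90, as were 5 of 6 endoderm and liver markers, with sums of 188 to 1913 and 2.27 to 54.7 TPM. Of 6 fibroblast markers COL3A1, DCN and POSTN were higher and PDGFRA lower, and of 6 smooth muscle markers CNN1 and MYH11 were higher. The part of these lists in the changes was not tested. The comparisons that use day 9, day 20 and day 90 share wells and are not independent.

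The balance between the chains of each class was tested directly on TPM within a well, which does not depend on scaling between wells. The atrial chains stayed the more abundant ones in every group mean. The share of the ventricular ones fell to a low point at day 5 to day 7 and then grew. MYL2 made up 1.19 ± 0.460% of MYL2 plus MYL7 in pluripotent wells (SD, n = 3), where both were low, and 0.00929 ± 0.00812% at day 7 (SD, n = 5). The share was 0.0121 ± 0.00473% at day 9 (SD, n = 5). It was 0.324%, 0.371% and 0.388% in the day 20 wells, 0.418%, 2.30% and 4.02% in those of day 30 and 2.19%, 2.51% and 3.68% in those of day 90. The log2 ratio of MYL2 to MYL7 was -12.57 ± 0.49 at day 9 (SD, n = 5) and -5.16 ± 0.40 at day 90 (SD, n = 3). The difference of 7.42 had an exact two-sided permutation p of 0.0357, the smallest this design can give, and 0.0357 after adjustment over 6 such ratio tests. Ratios used log2 of TPM plus a pseudocount of 0.1. Since MYL2 was near 0 TPM at day 9, this difference moved with the pseudocount, to 5.69 with 1 and 7.92 with 0.01, at the same p.

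The essential chains shifted less. MYL3 made up 23.5 ± 4.01% of MYL3 plus MYL4 in pluripotent wells and 24.0 ± 4.73% at day 0 (SD, n = 3 each), where both were low. It made up 2.87 ± 1.25% at day 5 (SD, n = 5), 8.41 ± 2.81% at day 7 (SD, n = 5) and 18.3 ± 1.56% at day 9 (SD, n = 5). It was at 29.3 ± 2.18% at day 14, 35.0 ± 3.23% at day 20 and 32.98 ± 4.85% at day 90 (SD, n = 3 each). The day 20 and day 90 wells overlapped. The log2 ratio of MYL3 to MYL4 was -2.17 ± 0.15 at day 9 (SD, n = 5) and -1.03 ± 0.32 at day 90 (SD, n = 3), a difference of 1.13 (exact permutation p 0.0357, adjusted 0.0357). Set against TNNT2, MYL4 was at 1.01 TPM per TPM at both day 9 and day 90, MYL3 at 0.226 and 0.503, and MYL2 at 0.000646 and 0.130.

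**Figure D4:**
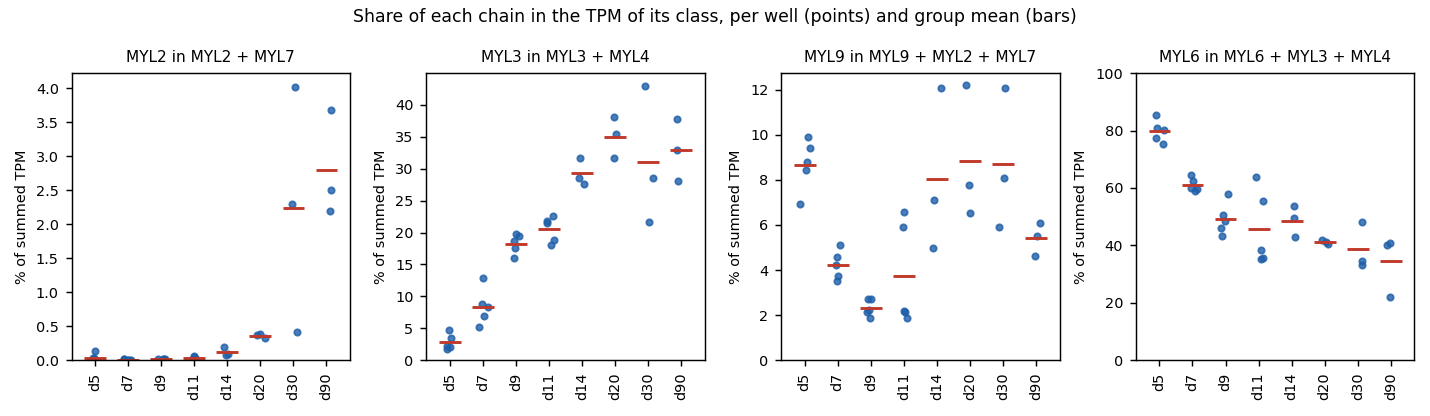
Percentage of the summed TPM of its class held by MYL2, MYL3, MYL9 and MYL6 in each well from day 5 to day 90, with bars for group means and vertical axes that differ between panels. The MYL2 share is at most 0.388% to day 20 and lies between 2.19% and 3.68% at day 90, while MYL3 holds at least 31.6% in each day 20 well.

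The non-muscle and smooth muscle chains lost ground to the cardiac chains by day 9. MYL6 (ENSG00000092841, chromosome 12, 56158161 to 56163496, plus strand) made up 99.5 ± 0.188% of the TPM of MYL6, MYL3 and MYL4 in pluripotent wells (SD, n = 3), 79.8 ± 3.87% at day 5 and 49.3 ± 5.48% at day 9 (SD, n = 5 each). Its log2 ratio to MYL3 plus MYL4 was 2.00 ± 0.36 at day 5 and -0.04 ± 0.32 at day 9 (SD, n = 5 each), a difference of -2.05 (exact permutation p 0.00794, adjusted 0.0238). At day 90 the share was 22.1%, 40.2% and 40.9%, and the log2 ratio was -0.97 ± 0.73 (SD, n = 3), a difference from day 9 of -0.93 (exact permutation p 0.0357, adjusted 0.0357). Day 90 replicate 4 was the low well, and it had the lowest fibroblast sum of the day, 190 TPM against 433 and 889. Its smooth muscle sum was also the lowest, 135 TPM against 269 and 330. Its cardiomyocyte sum (5190 TPM against 1782 and 2092) and endoderm and liver sum (54.7 against 2.27 and 2.49) were the highest. The part of these lists in its MYL6 share was not tested. Without day 90 replicate 4 the difference was -0.51.

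MYL9 fell and then rose relative to MYL7. Its share of the TPM of MYL9, MYL2 and MYL7 was 8.68 ± 1.14% at day 5 and 2.33 ± 0.377% at day 9 (SD, n = 5 each), then 8.84 ± 2.99% at day 20 and 5.43 ± 0.734% at day 90 (SD, n = 3 each). The log2 ratio of MYL9 to MYL7 was -3.40 ± 0.22 at day 5 and -5.40 ± 0.24 at day 9 (SD, n = 5 each), a difference of -2.003 (exact permutation p 0.00794, adjusted 0.0238). At day 90 it was -4.09 ± 0.22 (SD, n = 3), a difference from day 9 of 1.31 (exact permutation p 0.0357, adjusted 0.0357). In CPM, MYL9 itself went from 40.2 to 62.0 at day 5 to 86.4 to 253 at day 9. Its group means then rose at each sampled day to 1020 ± 51.3 CPM at day 90 (SD, n = 3). The sum of 6 smooth muscle markers had a median of 872 TPM at day 20 and 269 at day 90. In the same unit MYL9 was at 193, 241 and 244 TPM at day 20 and at 227, 230 and 328 TPM at day 90, and it was not called with limma on log2(TPM + 1) (0.20). The part of smooth muscle cells in the MYL9 level was not tested.

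The 2 classes of cardiac chain were least regulatory-rich at day 3, when MYL4 was called higher and MYL7 was not. The ratio of regulatory (MYL2 and MYL7) to essential (MYL3 and MYL4) TPM was 0.865 ± 0.204 at day 3 (SD, n = 3), 2.60 ± 0.428 at day 5 and 4.22 ± 1.19 at day 9 (SD, n = 5 each). It was 2.08 ± 0.337 at day 20 and 3.13 ± 0.205 at day 90 (SD, n = 3 each).

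MYL1 (ENSG00000168530, chromosome 2, 210290150 to 210315190, minus strand), the skeletal essential chain, was at 0 counts in every well to day 5. Later wells held 0 to 5 counts except day 30 replicate 3 and day 90 replicate 4, with 22 and 25 counts, or 1.02 and 1.74 CPM. It was not tested. MYF5 was at 0 in every well at days 14, 20, 30 and 90 and MYF6 at day 90, while the other skeletal muscle markers gave 2.16 to 4.19 TPM in sum at day 90. Of the 9 markers (MYOD1, MYOG, MYF5, MYF6, PAX7, MYH3, MYH8, TNNT3 and TNNI2) 6 could be tested. TNNT3 (log2 fold change 3.35, adjusted p 4.5e-05) and MYH3 (1.56, adjusted p 0.0134) were higher at day 20 than at day 9. For day 90 against day 9, 2 markers were higher and 0 lower, and against day 20, 1 was higher and 1 lower. The part of this list in the MYL1 level was not tested.

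Genes of the same pathway were followed as whole lists. Of all genes tested, 1.28% (day 9 against day 7) to 24.7% (day 5 against day 0) were called per comparison, so the counts below are a description. Of 6 other light chains (MYL5, MYL6B, MYL10, MYLPF, MYL12A and MYL12B) 5 could be tested. MYL5 was lower at day 3 than at day 1 (log2 fold change -1.32, SE 0.31, adjusted p 0.001), the 1 call for this list in the 7 comparisons. MYL12A and MYL12B, the broadly expressed regulatory chains, were at 208 ± 70.1 and 177 ± 66.5 CPM at day 90 (SD, n = 3 each), under MYL9. MYL6B, an essential chain of non-muscle and embryonic muscle myosin, had a log2 fold change of -0.90 for day 20 against day 9 (adjusted p 0.00054), under the fold threshold.

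A second list held 7 other kinases that act on the regulatory chain or its phosphatase (MYLK, MYLK2, MYLK4, ROCK1, ROCK2, DAPK3 and PRKCA). MYLK, the smooth muscle light chain kinase, was lower at day 5 than at day 0 (11.7 to 17.7 against 34.8 to 36.0 CPM, log2 fold change -1.39, SE 0.33, adjusted p 0.00092). At day 90 it was higher than at day 20 (1.61, adjusted p 0.00214), with wells from 14.6 to 140 CPM that overlapped day 20. MYLK4, a related kinase, was higher at day 5 than at day 0 (1.71, adjusted p 0.00374) but stayed between 0.581 and 1.499 CPM. For day 90 against day 9 MYLK (1.37, adjusted p 0.00098) and MYLK4 (1.08, adjusted p 0.0333) were higher. No other call was made for this list.

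The phosphatase list held 2 genes that rose at day 7, when MYL3 and MYL7 rose. PPP1R12B, a myosin-binding subunit of light chain phosphatase, was at 20.1 to 30.4 CPM on day 5 and 230 to 315 CPM on day 7 (log2 fold change 3.39, SE 0.31, adjusted p 3.1e-10). PPP1R14C, an inhibitor of that phosphatase, was at 0.343 to 0.855 CPM on day 5 and 29.1 to 56.8 on day 7 (5.96, SE 0.35, adjusted p 7.5e-15). Neither had overlapping wells, and the share of all genes without overlap was not counted. Both were higher again at day 90 than at day 9 (1.202, adjusted p 0.00243, and 1.25, adjusted p 0.00075). PPP1R14B, another inhibitor, was lower at day 5 than at day 0 (-1.31, SE 0.21, adjusted p 2.5e-06). The other 4 genes of the list were not called in any of the 7 comparisons. PPP1R12B shares exon bases with SYT2 on the other strand, and whether counting used the strand is not given in the sources used here.

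Of 7 heavy chain genes, MYH6 was called in 4 of the 7 comparisons, MYH7, MYH7B and MYH11 in 3 each, MYH9 in 2, MYH14 in 1 and MYH10 in none. In these comparisons 1.28% to 24.7% of all genes tested were called. MYH6, the alpha heavy chain, was higher at day 5 than at day 0 (log2 fold change 3.14, adjusted p 1e-06) and at day 7 than at day 5 (5.20, adjusted p 1.7e-11). It was lower at day 90 than at day 20 (-2.12, SE 0.47, adjusted p 0.00086) and at day 9 (-2.26). MYH7, the beta heavy chain that predominates in the ventricle, was higher at day 20 than at day 9 (2.78, SE 0.89, adjusted p 0.0186) and at day 90 than at day 20 (4.02, SE 1.13, adjusted p 0.00733) or day 9 (6.80). Its TPM was 81.7 to 115 at day 20 and 201 to 2224 at day 90. MYH6 and MYH7 are near-identical neighbours, so reads may have been split between them. MYH7B, a slow myosin, was higher at day 9 than at day 7 (2.65, adjusted p 0.00895) and at day 90 than at day 20 (1.90, adjusted p 0.0451) or day 9 (3.26). MYH11, the smooth muscle heavy chain, was higher at day 7 than at day 5 (4.11, adjusted p 7.6e-07), and above its day 9 level at day 20 (2.03, adjusted p 0.00277) and day 90 (2.198). The non-muscle chains MYH9 (-1.19, adjusted p 0.00839, day 90 against day 20, and -1.07 against day 9) and MYH14 (-1.68, adjusted p 0.00023, day 5 against day 0) were lower.

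Some of the 8 genes overlap others in the annotation. MYL6 shares exon bases with MYL6B on its own strand and with SMARCC2 on the other, and MYLK3 shares some with an unnamed transcript on the other strand. MYL3 and MYL9 overlap genes of the other strand without shared exon bases. MYL1, MYL2, MYL4 and MYL7 overlap none.

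The genes whose log2 CPM followed each member most closely over the 44 wells are given as a description, with Pearson's r among 13876 protein-coding genes. Wells of a day share their stage, so r reflects the time course and carries no p. MYL4 and MYL7 were near neighbours of each other (r 0.984), and TNNI1, the slow skeletal and fetal cardiac troponin I, came first for both (0.989 and 0.988). MYL3 was nearest to SMPX (0.987), CKM (0.985) and LDB3 (0.985), all striated muscle genes. MYL2 was nearest to HSPB3 (0.966), GPR22 (0.957) and SSPN (0.953). MYLK3 was nearest to RCSD1 (0.982), DNAJC6 (0.966) and MYOCD (0.963), which encodes the coactivator myocardin. MYL9 was nearest to HIPK3 (0.967), FITM1 (0.966) and SIRPA (0.964). MYL6 had the lowest leading value, 0.894 with FH. Between members, r was 0.590 for MYL2 with MYL4, 0.927 for MYL3 with MYL4 and 0.453 for MYL2 with MYLK3.

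The low levels of cardiac chains in early wells were compared between sequencing lanes. For the 9 wells of the pluripotent, day 0 and day 1 groups, the level was set against the mean of the later wells of the same lane. It was 0.207% to 0.468% of that mean for MYL3, 0.292% to 0.595% for MYL4, 0.266% to 0.642% for MYL7 and 0.402% to 1.04% for MYLK3. For MYL9 it was 5.28% to 27.3%. MYL2 in the 22 wells to day 7 was at 0 to 0.0402 CPM in lane 1, whose later wells averaged 3.96 CPM. It was at 0 to 0.124 CPM in lane 3 (12.3 CPM in later wells), 0.0798 to 0.289 in lane 2 (54.7), 0.133 to 0.391 in lane 4 (70.8) and 0.112 to 0.244 in lane 5 (108). Lane 5 had the highest later mean for MYL2 but not the highest early wells. Pearson's r between the early level and the later mean of the lane was 0.698 for MYL2 over the 22 wells. Over the 9 wells it was 0.777 for MYL3, 0.668 for MYL4, 0.798 for MYL7, 0.731 for MYLK3, 0.720 for TNNT2 and -0.368 for MYL9. The highest early MYL9 wells were both of day 1, at 56.9 CPM in lane 1 and 58.1 CPM in lane 3. Day 0 wells of these lanes were at 22.1 and 21.4 CPM. Reads from other libraries of the lane as a source of these low levels were not tested. The fold changes for day 3 against day 1 and day 5 against day 0 use the early levels as measured.

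**Figure D5:**
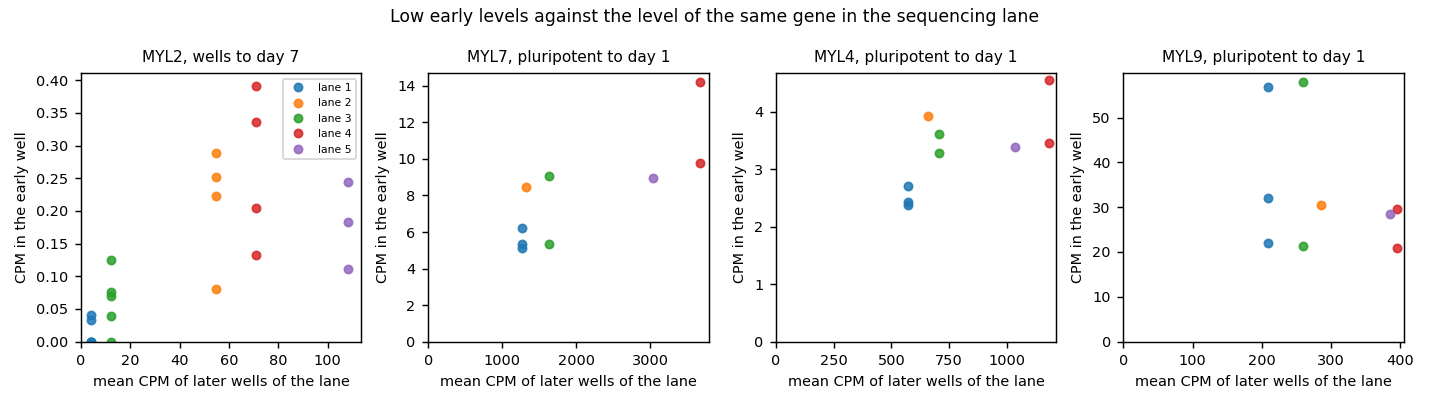
CPM of MYL2 in wells to day 7 and of MYL7, MYL4 and MYL9 in pluripotent, day 0 and day 1 wells, against the mean CPM of the same gene in the later wells of that lane, coloured by lane. The highest wells of MYL2, MYL7 and MYL4 are in lane 4 and the lowest of MYL7 and MYL4 in lane 1. MYL9 has its 2 highest wells, both of day 1, in lanes 1 and 3.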

How the data were processed

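RNA of 44 wells was sequenced as 150 bp paired-end total RNA libraries made with a stranded kit, 10 libraries per lane, per the labels' protocols. The authors deposited expected counts per gene, not scaled between libraries, and TPM, which are scaled per transcript length and to a fixed sum. Reads were processed with cutadapt, STAR 2.5.2b and RSEM 1.2.31 on hg38, per the submitters' processing notes. The annotation and strand setting are not given in the sources used here. The authors' deposited sample table gives an RNA integrity score, a lane and a sequencing batch for each library. The sequencing batch entered none of the fits. Protein-coding genes held 15.4% to 41.9% of TPM, so TPM of a gene also moves with the non-coding share.

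Gene identifiers were matched to GENCODE 29 (56769 of 60499), and 93.8% of the count values were whole. Counts were rounded. filterByExpr of edgeR 4.0.16 (R 4.3.3) left 22955 genes, libraries were scaled by TMM, and all 44 libraries entered 1 quasi-likelihood model with group means. Adjusted p-values are Benjamini-Hochberg over all 22955 genes. SE is the absolute log2 fold change divided by the square root of F. Exact permutation tests, two-sided, compared 6 ratios of TPM (scipy 1.17.1). Alternatives were RLE scaling, DESeq2 1.42.0, other filters, limma 3.58.1 on TPM, fits of the compared groups, the lane, a replicate block and each library left out. The comparison of day 3 with day 1 was added after the data were seen. The fit was tested on simulated counts. Counts are without molecular identifiers, and the stated floors of 3 counts are a guide to depth, not a measure of counting error.

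Members, gene lists and tests were chosen with earlier results of these data known. Named genes are all members, the whole pathway lists, and the 3 most alike genes per member among tested protein-coding genes that reached a mean TPM of 1 in a group. Of the members, 5 of 8 had RefSeq promoter entries.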

Additional observations from a re-analysis of the deposited data

Results flagged for a closer look

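In groups of 4 or more wells, a well was looked at again when its gap to the nearest other well was large against the range of its group (Dixon's test). Of 31 groups tested, 2 had such a well in a gene other than MYL1. Groups of MYL1 were among the 31, but their wells were not listed. At days 7 and 9 MYL1 had 1 count in a single well and 0 in the others, which also meets the rule. The 2 are thus not a share to set against the about 1 in 20 that chance alone gives. MYL3 in day 7 replicate 10 was at 130.2 CPM, against 33.01 to 49.95 CPM in the other 4 wells (gap to range 0.826). This well also had the lowest summed endoderm and liver markers (102.6 TPM) and fibroblast markers (124.7 TPM) of its day, and their part in its level was not tested. MYL2 in day 5 replicate 4 was at 0.3913 CPM, against 0 to 0.1116 CPM in the others (gap to range 0.715), which is 9 counts. That well was in lane 4, whose later wells averaged 70.8 CPM of MYL2.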

How the results depend on the processing

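Of single-gene values under an alternative, 756 kept their direction and side of the threshold, 43 lost a call, 11 gained one and 23 changed sign. None of the sign changes was in a gene called in the comparison as reported. Members called for day 9 against day 7 were 2 in place of 1 with DESeq2, without a filter and in the fit of these groups alone. For day 90 against day 20 they were 1 in place of 4 with limma on log2(TPM + 1) and log2(TPM + 0.1) and in the fit of these groups alone, and 2 with the lane as a term. For day 90 against day 9 they were 3 in place of 5 with either limma test. With each library left out in turn, the members called were 2 to 3 for day 3 against day 1, 4 to 5 for day 5 against day 0, 5 to 5 for day 7 against day 5, 1 to 2 for day 9 against day 7, 3 to 4 for day 20 against day 9, 1 to 6 for day 90 against day 20 (1 without day 20 replicate 2, 6 without day 20 replicate 3) and 4 to 6 for day 90 against day 9. Over all genes, day 90 against day 20 gave 3532 calls, against 759 in the fit of these groups alone and 7826 with limma on log2(TPM + 0.1), and day 9 against day 7 gave 293, against 28 and 68 with the limma tests.

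The ratio differences kept their sign in each alternative. With libraries left out they ranged from 7.196 to 7.60 (MYL2 to MYL7, day 90 against day 9, with 5.69 and 7.92 at pseudocounts of 1 and 0.01), 0.98 to 1.30 (MYL3 to MYL4), 1.21 to 1.43 (MYL9 to MYL7), -1.15 to -0.51 (MYL6 to MYL3 plus MYL4), and for day 9 against day 5 from -2.09 to -1.93 (MYL9 to MYL7) and -2.17 to -1.91 (MYL6 to MYL3 plus MYL4). For day 90 against day 9 these smaller designs cannot reach 0.05. Replicate numbers did not pair the wells by the rule used (every r over 0.1 with 3 or more pairs), with r of same-numbered deviations from -0.221 (day 20 against day 9) to 0.681 (day 9 against day 7, lowest 0.067, where 4 of 5 wells were closest to their own number), and 0.160 and 0.200 for the 2 pairs of day 90 against day 9. With the replicate block the ratio differences were 6.85, 1.35, 1.11 and -1.44 for day 90 against day 9 over 2 pairs (exact p 0.5, the smallest possible) and -1.94 and -2.02 for day 9 against day 5 over 4 pairs (exact p 0.125). The block moved 2 single-gene calls, MYLK3 for day 20 against day 9 (-0.79) and MYL6 for day 90 against day 9 (1.13).

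Values that changed sign, in genes not called, were these log2 fold changes. MYL6 for day 9 against day 7 (-0.0064 as reported) was 0.0192 with RLE and with DESeq2, 0.0134 without a filter, 0.037 with the filter of 1 CPM in 3 libraries, 0.0107 in the fit of these groups and 0.0078 with the lane. With a library left out it was -0.135 to 0.149, and above 0 without day 7 replicate 1 (0.003) or 10, or day 9 replicate 2 (0.0496), 3 (0.0226) or 4 (0.0525). With limma on TPM, MYL6 was -0.148 and MYLK3 -0.142 and -0.149 for day 90 against day 20, and MYL2 was -0.152 for day 5 against day 0 with log2(TPM + 0.1). MYL2 for day 5 against day 0 was -0.624 (without day 5 replicate 4) to 1.08 (without day 0 replicate 2). For day 3 against day 1 it was -1.73 to 0.617, above 0 without day 1 replicate 2 (0.617) or day 3 replicate 1 (0.0994). MYLK3 for day 90 against day 9 was -0.344 to 0.0291, above 0 without day 9 replicate 10 (0.0291) or day 90 replicate 2 (0.0208). For day 20 against day 9, MYL4 was -0.265 (without day 20 replicate 3) to 0.457 and MYL6 -0.206 (without the same well) to 0.453. The cause was not tested. Depth limits MYL2 up to and including day 11 and MYL1 throughout, where wells held few counts.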
